A study of Mus musculus with 5 samples.

Results

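The ephrin, semaphorin, plexin and neuropilin genes were followed through 4 stages of heart differentiation from mouse embryonic stem cells. Members were all array probes whose deposited name begins with Epha, Ephb, Efna, Efnb, Sema or Plxn and continues with the member's own designation, together with Nrp1 and Nrp2. The rule took 62 of 28845 probes, which name 46 genes: 2 neuropilins with 3 probes, 6 plexins with 6, 18 semaphorins with 23, 8 ephrins with 8 and 12 Eph receptors with 22. In all 62 cases the deposited definition of the probe matched its family. The single probe of Nrp1 carried the older name Nrp and was renamed through its accession. Plxnd1, Plxna4 and Sema6d were not analysed here.

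Semaphorins are secreted or membrane-bound ligands that act through plexins, receptors whose intracellular part switches off small Ras-family GTPases and collapses the actin cytoskeleton. Most class 3 semaphorins bind plexins only with the help of a neuropilin, a co-receptor with a short intracellular tail that also binds vascular endothelial growth factors. Ephrins are ligands tethered to the cell surface that activate Eph receptor tyrosine kinases on a touching cell and can signal back into the cell that carries them. In the embryo these families guide axons, set borders between tissues and shape vessels, and in mice Nrp1, Sema3c and Efnb2 with Ephb4 are needed for the outflow tract of the heart or for vessel remodelling.

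Embryoid bodies, aggregates in which stem cells differentiate in culture, served as the model of cardiogenesis. RNA came from marker-positive cells of 4 populations. They were undifferentiated stem cells positive for Rex1 at day 0, cells of the early mesoderm positive for Bra (brachyury) at day 4.5, cells of the cardiac mesoderm positive for Flk1 at day 4.5, and progenitors of the heart positive for Nkx2.5 at day 7.5. Bra, Flk1 and Nkx2.5 RNA were each hybridised with Rex1 RNA, and Nkx2.5 RNA also with that of Bra and of Flk1, on 5 two-colour arrays. Rex1 was always labelled with Cy3, Nkx2.5 always with Cy5, and on every array the later population carried Cy5. Within a single array an effect of the dye and of the population cannot be told apart. The labels name neither the stem cell line nor the isolation method and do not say how many cultures each RNA came from.

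Each pair of populations was hybridised on 1 array, with no replicate sample and no dye exchange, so the values carry no replicate error and were not tested. Each comparison was instead read along separate routes. The first reading is the log2 ratio on the array of that pair, Cy5 over Cy3, and the second comes from the arrays that link the pair through another population. Nkx2.5 and Rex1 were linked through both Bra and Flk1, and these routes were averaged. A dye effect equal on all arrays would cancel in a second reading that subtracts 1 array from another. In the second reading of Nkx2.5 over Rex1, where arrays are summed, it would add up. No array carried Flk1 with Bra: there the first reading runs through Rex1 and the second through Nkx2.5. The comparisons share arrays, so their values are not independent of each other. A probe passed the size rule where both readings reached 2-fold (1 on the log2 scale) in the same direction and the brighter population was well above background, that is above percentile 95 of the 96 negative control spots, on at least 1 array. From the failure of the triangles to close over all probes, the average error of 1 array was 0.24 on the log2 scale, which covers hybridisation and dye but not biological variation. In RNA of whole populations, fewer cells of a type and less RNA per cell cannot be told apart.

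Of the members, 50 of 62 (80.6%) were well above background in all 10 channels, against 73.1% of all probes, and each of the 62 was so in at least 1 channel. Nrp1 was the 1 member below that limit on all 3 arrays of a population, Rex1, and such a value is called dim here. Of all 28845 probes, 3647 were dim in Rex1. The sort markers matched the labels in direction: Zfp42, the gene for Rex1, was lower by both readings in Nkx2.5 over Rex1 (-1.68 and -2.25), Flk1 over Rex1 (-1.76 and -1.18) and Bra over Rex1 (-1.74 and -1.19). Brachyury (T) was at 1.07 and 0.73 in Bra over Rex1, Kdr, the gene for Flk1, at 0.68 and 0.64 in Flk1 over Rex1, and Nkx2-5 at 0.53 and 0.91 in Nkx2.5 over Rex1. None of these 3 reached 2-fold in both readings.

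Across the families, Nrp1 stood out and most other members differed little between the populations. Nrp1 was higher in the Nkx2.5 and the Flk1 population than in Rex1, and higher in Nkx2.5 than in Bra. Its 2 readings were 2.61 and 3.21 in Nkx2.5 over Rex1, 2.48 and 1.57 in Flk1 over Rex1, and 1.73 and 1.43 in Nkx2.5 over Bra. One of the 3 probes of the receptor gene Epha7 was higher in Bra than in Rex1, at 1.11 and 1.07. No other member passed the size rule in any of the 6 comparisons, and no member passed it as lower.

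**Figure D1:**
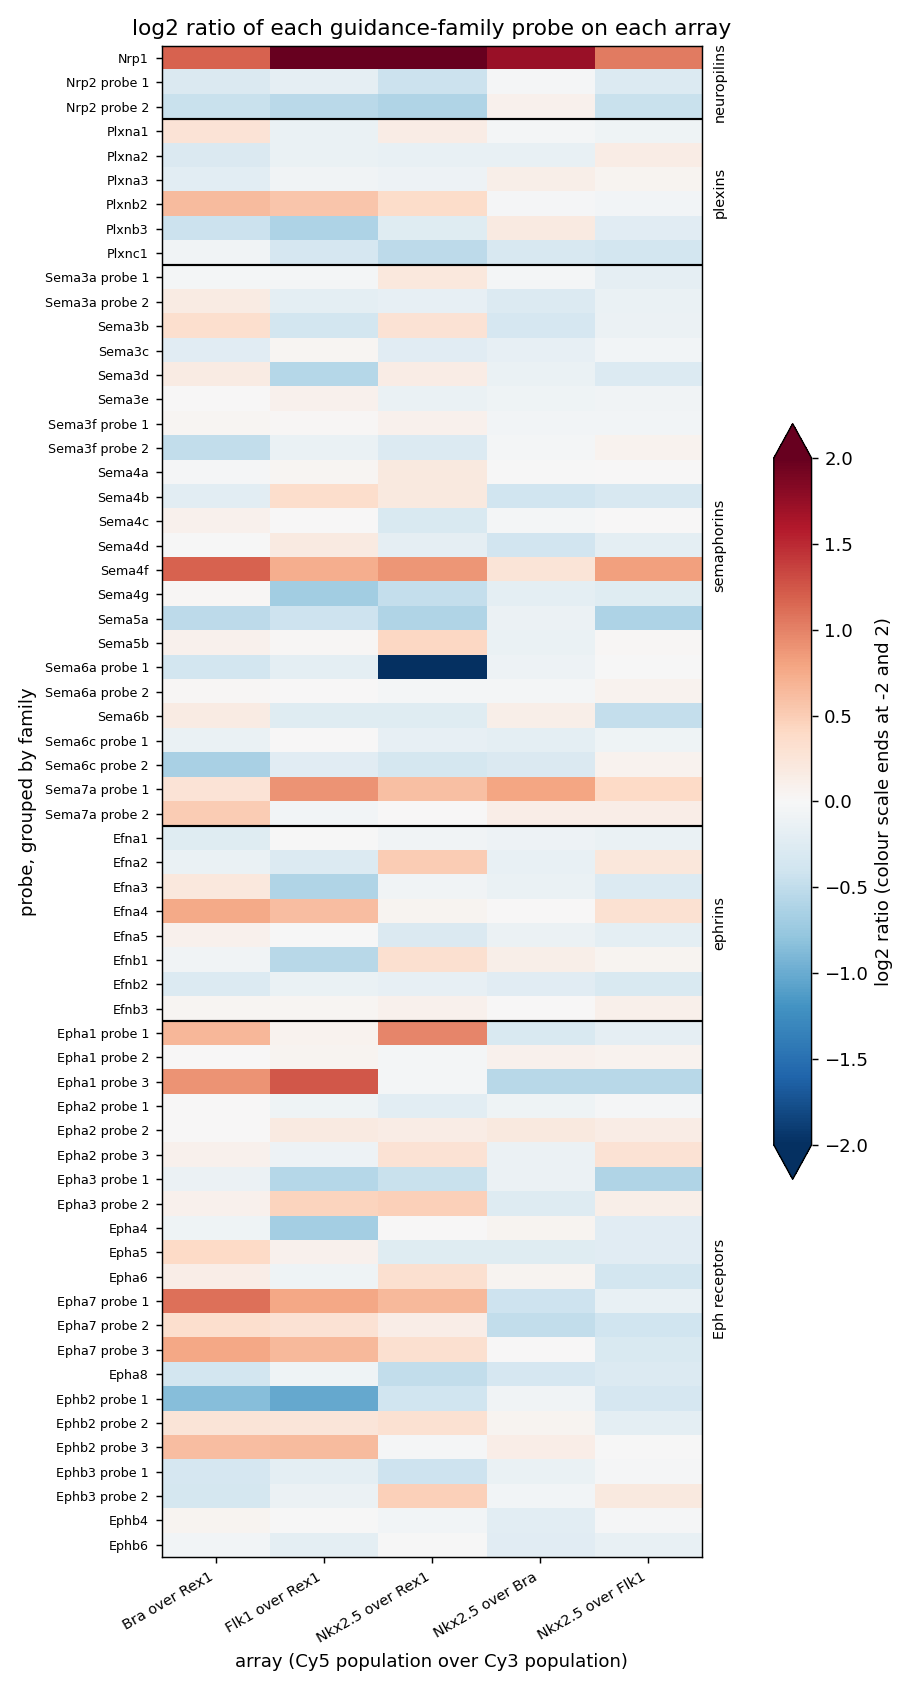
Each row is 1 of the 62 probes, grouped by family, and each column 1 of the 5 arrays; colour gives the log2 ratio of the first-named population over the second, with red for higher and blue for lower. Nrp1 is red on all 5 arrays, at 1.03 to 2.61, while most other probes are pale; probe 1 of Sema6a is dark blue on the Nkx2.5 over Rex1 array alone.

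Counts of members have to be read against all probes of the arrays. In Bra over Rex1 1 of 62 members passed as higher and 0 as lower, where 1.27% and 0.253% of all probes did. In Flk1 over Rex1 it was 1 higher and 0 lower, against 0.749% and 0.295% of all probes. In Nkx2.5 over Rex1 it was again 1 and 0, against 2.75% and 0.749%. Nkx2.5 over Bra gave 1 higher and 0 lower, against 0.319% and 0.0728%. In Nkx2.5 over Flk1 0 members passed, where 0.34% of all probes passed as higher and 0.101% as lower, and in Flk1 over Bra 0 passed, where 0.0173% and 0.00347% did. A single probe is 1.61% of the members, so a count of 1 lies near the background in the comparisons with Rex1.

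With the threshold lowered to 1.5-fold in both readings, 4 members were higher and 0 lower in Bra over Rex1 (Epha1, Epha7, Nrp1 and Sema4f, 1 probe each), where 3.59% and 1.51% of all probes passed. In Flk1 over Rex1 3 were higher, Nrp1 and 2 probes of Epha7, and 0 lower, against 2.78% and 1.47% of all probes. In Nkx2.5 over Rex1 4 were higher (Nrp1, Sema4f and 1 probe each of Epha7 and Sema7a) and 2 lower (Sema5a and 1 probe of Nrp2), against 6.29% and 3.26%. Nrp1 was the only member past 1.5-fold in Nkx2.5 over Bra, where 0.842% of all probes were higher and 0.478% lower, and in Flk1 over Bra, where 0.159% and 0.205% were. In Nkx2.5 over Flk1 0 members passed, against 1.19% and 0.621% of all probes.

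The middle of the families lay near no difference. The median log2 ratio of the 62 probes was -0.04 by the first and -0.14 by the second reading in Nkx2.5 over Rex1, -0.05 and 0.01 in Flk1 over Rex1, and 0.01 and 0.04 in Bra over Rex1. It was -0.09 and -0.05 in Nkx2.5 over Bra, -0.08 and -0.03 in Nkx2.5 over Flk1, and -0.05 and -0.01 in Flk1 over Bra. The medians of all probes lay between -0.02 and 0.01 in all of these. In Nkx2.5 over Rex1 66.1% of the members stayed within 0.5 of zero in both readings, against 67.0% of all probes, and the share ranged over the 6 comparisons from 61.3% to 82.3% of members, against 67.0% to 81.6% of all probes. The 2 readings had the same sign for 71.0% of the members in Nkx2.5 over Rex1, against 74.2% of all probes, for 54.8% in Flk1 over Rex1, against 62.3%, and for 61.3% in Bra over Rex1, against 64.0%. The shares were 58.1% in Nkx2.5 over Bra, against 56.7%, 56.5% in Nkx2.5 over Flk1, against 58.0%, and 45.2% in Flk1 over Bra, against 53.1%. The readings of the remaining members had opposite signs.

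**Figure D2:**
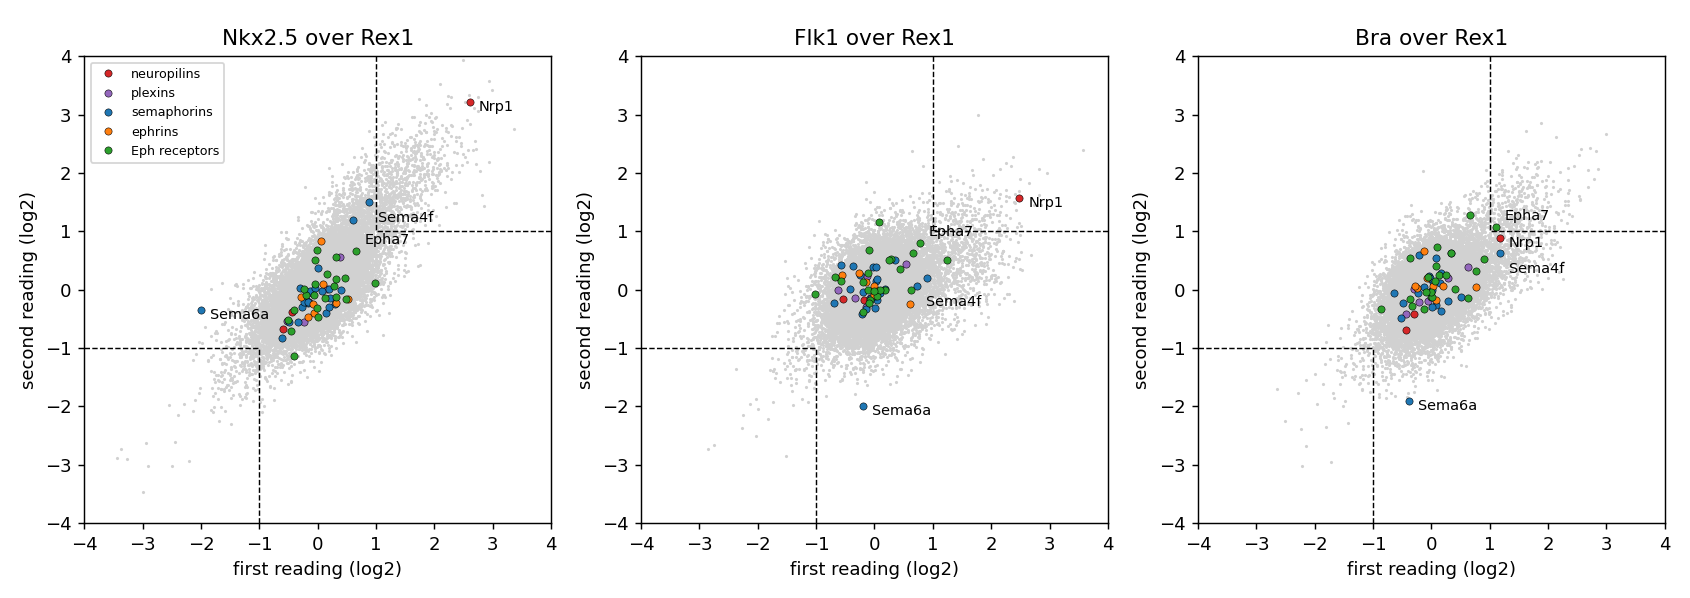
Each panel sets the first reading (horizontal, log2) against the second (vertical, log2) for all 28845 probes in grey and the 62 members coloured by family; dashed corners mark 2-fold in both readings. Nrp1 lies in the upper corner in Nkx2.5 over Rex1 and Flk1 over Rex1 and outside it in Bra over Rex1, where 1 Epha7 probe lies just inside, and Sema6a probe 1 is low in 1 reading and near zero in the other.

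Neuropilins are the co-receptors of the class 3 semaphorins. Nrp1, which binds Sema3a and vascular endothelial growth factor A, had a net signal of 882, 696.5 and 1167 scanner units in the 3 Rex1 channels, none of them above the limit set by the negative control spots of that channel. In the Bra channels it had 2975.5 and 6575 units, in the Flk1 channels 3810.5 and 5923, and in the Nkx2.5 channels 6628, 14317.5 and 13954.5, all well above background. The lowest Bra value exceeded the highest Rex1 value, while the Bra and Flk1 signals overlapped on this scale, which was not normalised between arrays.

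**Figure D3:**
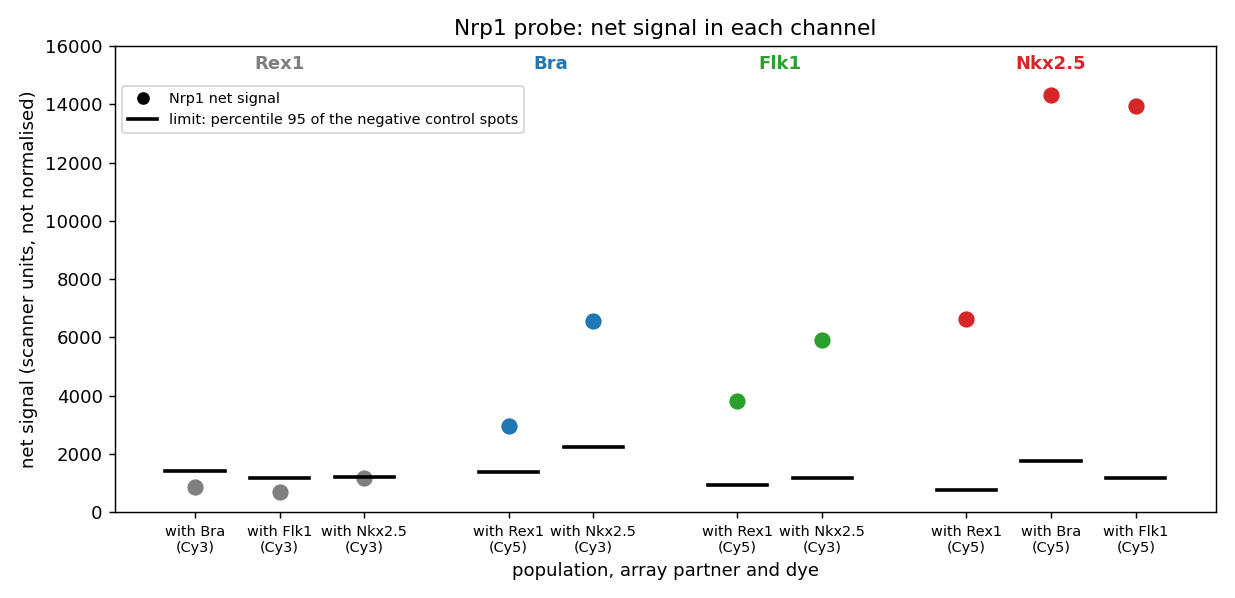
Points give the net signal (scanner units, not normalised between arrays) of the Nrp1 probe in each of the 10 channels, grouped by population in order of stage; horizontal bars mark the background limit of the same channel. The 3 Rex1 points, at 696.5 to 1167, lie under their limits and all others above.

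The log2 ratios of Nrp1 were 1.18 in Bra, 2.48 in Flk1 and 2.61 in Nkx2.5 over Rex1, and 1.73 over Bra and 1.03 over Flk1 in Nkx2.5. All 5 were above zero, so each later population, labelled with Cy5, was brighter than its earlier partner. By the smaller of its readings Nrp1 ranked 37 from the top of 28845 probes in Nkx2.5 over Bra, where both populations were well above background. In Bra over Rex1 the readings were 1.18 and 0.88, short of the size rule.

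Rex1 was dim for Nrp1, so the ratios over Rex1 have no exact size. Set against the background limit of the Rex1 channels, the fold was estimated as at least 7.80 in Nkx2.5, 3.88 in Flk1 and 2.02 in Bra over Rex1. The folds of the smaller readings were 6.10, 2.98 and 1.84, each below its bound, so the bounds are estimates and no guaranteed minimum. With no background subtracted Nrp1 no longer passed in any comparison: its readings were 0.41 and 0.64 in Nkx2.5 over Rex1, 0.18 and -0.05 in Flk1 over Rex1, and 0.63 and 0.40 in Nkx2.5 over Bra. Under that setting 2 of all 28845 probes passed as higher in Nkx2.5 over Rex1.

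The step between the Flk1 and the Nkx2.5 population was not settled for Nrp1. Nkx2.5 over Flk1 read 1.03 on its own array and 0.13 through Rex1, and Flk1 over Bra read 1.31 through Rex1 and 0.70 through Nkx2.5. The triangle through Flk1 failed to close by 0.91 for this probe, against an SD of 0.45 over all probes, and that through Bra by 0.30, against 0.40. A least-squares fit over all 5 arrays put Nrp1 at 1.18 in Bra, 2.18 in Flk1 and 2.91 in Nkx2.5 over Rex1. When each array was left out in turn, Nkx2.5 over Flk1 ranged from 0.23, without the array of Nkx2.5 and Flk1, to 1.03, without the array of Flk1 and Rex1. Flk1 over Bra ranged from 0.60, without the array of Flk1 and Rex1, to 1.40, without the array of Nkx2.5 and Flk1. Flk1 over Rex1 ranged from 1.67 to 2.48. Nkx2.5 over Rex1 stayed between 2.71 and 3.21 and Nkx2.5 over Bra between 1.63 and 1.88.

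Nrp2, the co-receptor for Sema3f and vascular endothelial growth factor C, did not follow Nrp1. Probe 1 of Nrp2 had log2 ratios of -0.29 in Bra, -0.18 in Flk1 and -0.44 in Nkx2.5 over Rex1, and -0.02 over Bra and -0.27 over Flk1 in Nkx2.5. Probe 2 had -0.44 in Bra, -0.54 in Flk1 and -0.60 in Nkx2.5 over Rex1, and 0.09 over Bra and -0.45 over Flk1 in Nkx2.5. Both probes were below zero on all 3 arrays with Rex1, and their fitted levels in Nkx2.5 over Rex1 were -0.41 and -0.63. Neither passed the size rule, and probe 2 was well above background in Rex1 on 1 of 3 arrays and in Nkx2.5 on 1 of 3. In the deposited series table the readings of probe 2 in Nkx2.5 over Rex1 were -1.20 and -1.01, past 2-fold. With no background subtracted they were -0.05 and 0.01, so its fall rests on background subtraction.

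The start regions of the neuropilin genes and of Epha7 are shown. Nrp1 and 1 probe of Epha7 passed the size rule, and Nrp2 gives the contrast within a family. Each covers 250 bases before and 50 after an annotated start in RefSeq (build GRCm38.p6): Nrp1 at chr8:128358823-128359122, Nrp2 at chr1:62703067-62703366 and Epha7 at chr4:28812881-28813180, all on the plus strand. Capitals mark GC boxes (GGGCGG on either strand), the binding motif of Sp1-type factors.
Nrp1: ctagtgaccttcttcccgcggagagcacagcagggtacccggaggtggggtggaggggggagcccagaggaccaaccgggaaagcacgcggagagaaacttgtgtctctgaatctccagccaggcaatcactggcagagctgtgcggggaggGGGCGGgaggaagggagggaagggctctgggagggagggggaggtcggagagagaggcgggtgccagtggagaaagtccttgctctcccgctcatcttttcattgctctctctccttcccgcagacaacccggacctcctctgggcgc
Nrp2: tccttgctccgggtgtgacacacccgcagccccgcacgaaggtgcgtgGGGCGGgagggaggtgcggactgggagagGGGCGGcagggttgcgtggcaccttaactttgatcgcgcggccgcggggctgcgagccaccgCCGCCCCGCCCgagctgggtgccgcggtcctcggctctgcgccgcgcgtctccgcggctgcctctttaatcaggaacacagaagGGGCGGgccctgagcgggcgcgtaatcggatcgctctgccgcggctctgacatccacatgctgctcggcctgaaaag
Epha7: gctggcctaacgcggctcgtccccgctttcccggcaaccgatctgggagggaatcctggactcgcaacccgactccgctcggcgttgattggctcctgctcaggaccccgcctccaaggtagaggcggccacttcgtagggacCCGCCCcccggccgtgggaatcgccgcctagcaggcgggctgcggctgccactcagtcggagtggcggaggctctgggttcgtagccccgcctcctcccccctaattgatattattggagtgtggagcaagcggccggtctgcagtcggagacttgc
The Nrp1 region held 1 GC box and 14 CpG dinucleotides at 64% GC, that of Nrp2 5 GC boxes and 37 CpG at 70.7% GC, and that of Epha7 1 GC box and 28 CpG at 67% GC. The 5 boxes of Nrp2 include a pair that overlap by 1 base. At least 1 GC box stood in 35.7% of all 32851 promoters of the table and in 41 of the 54 promoters (75.9%) that the table holds for 41 member genes, whose median GC content was 64.2%, against 52.7% over all promoters. The ETS core CCGGAA (14.9% of all promoters), the GATA motif AGATAA (11.2%), TATAAA (13.6%), the T-box motif AGGTGTGA (1.28%) and the NKX2-5 motif TNAAGTG (11.5%), searched on both strands, had no match in these 3 regions, and the TCF/LEF motif ATCAAAG (3.73%) matched once, in Nrp2. The region of Sema4f, which is not printed, held 0 GC boxes and 7 CpG at 48.7% GC and matched none of these motifs. A match describes letters in these windows and is not a binding site.

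First readings of the plexins, the signalling receptors, had an SD of 0.40 in Bra over Rex1, against 0.43 over all probes. In Nkx2.5 over Rex1 the SD was 0.31, against 0.48. On the 5 arrays the 6 plexin probes lay between -0.62 and 0.63 on the log2 scale. Of the 6, 0 passed the size rule at 2-fold or at 1.5-fold in any comparison. At most 2.75% and 6.29% of all probes passed in a direction there, so 0 of 6 lies near the background. The median was -0.12 and -0.14 in Nkx2.5 over Rex1, -0.14 and -0.08 in Flk1 over Rex1, and -0.14 and -0.10 in Bra over Rex1.

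Among the plexins that work with neuropilins, Plxna1, a partner of Nrp1 in sensing Sema3a, had log2 ratios of 0.28 in Bra, -0.13 in Flk1 and 0.16 in Nkx2.5 over Rex1, and -0.04 over Bra and -0.08 over Flk1 in Nkx2.5. Plxna2, known from cardiac neural crest cells in mice, had -0.30 in Bra, -0.14 in Flk1 and -0.15 in Nkx2.5 over Rex1, and -0.15 over Bra and 0.15 over Flk1 in Nkx2.5. Both changed sign between arrays and neither came near 2-fold. The third A-class member, Plxna3, a partner of Nrp2 in sensing Sema3f, stayed between -0.21 and 0.11.

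The B- and C-class plexins bind other semaphorin classes and need no neuropilin for it. Plxnb2, a receptor for class 4 semaphorins, had 0.63 in Bra, 0.55 in Flk1 and 0.37 in Nkx2.5 over Rex1, and -0.02 over Bra and -0.06 over Flk1 in Nkx2.5. Its second readings over Rex1 were 0.39 in Bra, 0.43 in Flk1 and 0.55 in Nkx2.5. It was above zero in all 6 readings against Rex1 and near zero between the 3 differentiated populations. Plxnb3, a receptor for Sema5a, had -0.44 in Bra, -0.62 in Flk1 and -0.24 in Nkx2.5 over Rex1, and 0.19 over Bra and -0.22 over Flk1 in Nkx2.5. It was below zero on the arrays with Rex1, though its second reading in Flk1 was -0.01. Plxnc1, the receptor of Sema7a, had -0.06 in Bra, -0.33 in Flk1 and -0.52 in Nkx2.5 over Rex1, and -0.32 over Bra and -0.37 over Flk1 in Nkx2.5. Plxnc1 was below zero on all 5 arrays, and by its fitted level of -0.53 it was lowest in Nkx2.5.

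Semaphorins, the ligands, numbered 23 probes, and 0 passed the size rule at 2-fold, where at most 2.75% of all probes passed in a direction. Their median was -0.13 and -0.20 in Nkx2.5 over Rex1, 0.00 and 0.01 in Flk1 over Rex1, and 0.02 and -0.01 in Bra over Rex1. On the arrays 19 of 23 stayed within 0.5 of zero in each comparison with Rex1.

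The class 3 ligands of the neuropilins showed little difference. The 2 probes of Sema3a, the ligand of Nrp1 in axon repulsion, stayed between -0.28 and 0.20 over the 5 arrays. Sema3c, needed in mice for septation of the outflow tract, had -0.23 in Bra, 0.04 in Flk1 and -0.22 in Nkx2.5 over Rex1, and -0.16 over Bra and -0.05 over Flk1 in Nkx2.5. Sema3e, which binds Plxnd1 without a neuropilin, stayed between -0.13 and 0.09. None of these 4 probes passed the size rule in any comparison. Sema3f, the ligand of Nrp2, stayed between -0.06 and 0.08 with probe 1 and had its lowest value, -0.49, with probe 2 in Bra over Rex1. Sema3b, a secreted repellent, had readings of -0.71 and -0.23 in Flk1 over Bra. Its array values were 0.34 in Bra, -0.37 in Flk1 and 0.30 in Nkx2.5 over Rex1, and -0.34 over Bra and -0.11 over Flk1 in Nkx2.5. Its sign differed between the arrays of Flk1 and of Bra with Rex1.

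Among the membrane-bound semaphorins, Sema4f, a class 4 member known from neurons, was above zero on all 5 arrays, at 1.18 in Bra, 0.73 in Flk1 and 0.89 in Nkx2.5 over Rex1, and 0.26 over Bra and 0.82 over Flk1 in Nkx2.5. By its second reading, though, Nkx2.5 over Bra was below zero. In Nkx2.5 over Rex1 its first reading was 0.89 and its second was past 2-fold. The readings were 0.73 and 0.07 in Flk1 over Rex1 and 1.18 and 0.63 in Bra over Rex1, so it passed the size rule in none of the 3. In the least-squares fit it stood at 1.19 in Nkx2.5, 0.55 in Flk1 and 1.06 in Bra over Rex1, and Flk1 over Bra read -0.45 and -0.56. Sema4f was thus lower in Flk1 than in Bra by both readings, though by less than 2-fold, and the probe was well above background in every channel. Sema4a, which acts on vessels and immune cells in mice, stayed between -0.03 and 0.20. Sema4g, another class 4 member, had 0.02 in Bra, -0.69 in Flk1 and -0.48 in Nkx2.5 over Rex1, and -0.19 over Bra and -0.25 over Flk1 in Nkx2.5.

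Sema7a, a lipid-anchored semaphorin that binds Plxnc1, had 0.28 in Bra, 0.90 in Flk1 and 0.60 in Nkx2.5 over Rex1, and 0.79 over Bra and 0.40 over Flk1 in Nkx2.5 with probe 1. The readings of that probe were 0.60 and 1.19 in Nkx2.5 over Rex1 and 0.79 and 0.32 in Nkx2.5 over Bra. Probe 2 of Sema7a had 0.51 in Bra, -0.06 in Flk1 and 0.00 in Nkx2.5 over Rex1, and 0.13 over Bra and 0.14 over Flk1 in Nkx2.5, so the probes did not show the same pattern. Sema5a, a ligand of Plxnb3 with thrombospondin repeats, was below zero on all 5 arrays, at -0.52 in Bra, -0.41 in Flk1 and -0.61 in Nkx2.5 over Rex1, and -0.12 over Bra and -0.61 over Flk1 in Nkx2.5. Sema5a read -0.61 and -0.83 in Nkx2.5 over Rex1 and -0.52 and -0.49 in Bra over Rex1. It was past 1.5-fold in Nkx2.5 over Rex1 and was well above background in Rex1 on 2 of 3 arrays.

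The largest single-array value below zero belonged to Sema6a, a membrane-bound ligand of A-class plexins. Probe 1 had -0.37 in Bra, -0.19 in Flk1 and -2.01 in Nkx2.5 over Rex1, and -0.10 over Bra and -0.02 over Flk1 in Nkx2.5. Its second reading in Nkx2.5 over Rex1 was -0.34, so the low value stood on the array of Nkx2.5 with Rex1 alone. The triangles failed to close by 1.53 and 1.80 for it, and it was well above background in Nkx2.5 on 2 of 3 arrays. Probe 2 of Sema6a, well above background on every array, stayed between -0.04 and 0.07. Sema6c, another class 6 member, stayed between -0.20 and 0.00 with probe 1. Its probe 2 had -0.65 in Bra, -0.22 in Flk1 and -0.34 in Nkx2.5 over Rex1, and -0.29 over Bra and 0.07 over Flk1 in Nkx2.5. The other semaphorin genes, Sema3d, Sema4b, Sema4c, Sema4d, Sema5b and Sema6b, lay between -0.58 and 0.41 on the arrays.

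Ephrins, the ligands of the Eph receptors, numbered 8 probes of 8 genes, and 0 passed at 2-fold or at 1.5-fold in any comparison. At most 2.75% and 6.29% of all probes passed in a direction at these thresholds. Their median was -0.01 and -0.19 in Nkx2.5 over Rex1, -0.07 and 0.10 in Flk1 over Rex1, and -0.02 and 0.07 in Bra over Rex1. Efnb2, the transmembrane ephrin that marks arteries, had -0.27 in Bra, -0.14 in Flk1 and -0.16 in Nkx2.5 over Rex1, and -0.23 over Bra and -0.30 over Flk1 in Nkx2.5. Its partner Ephb4, the receptor that marks veins, had 0.06 in Bra, -0.01 in Flk1 and -0.06 in Nkx2.5 over Rex1, and -0.21 over Bra and -0.03 over Flk1 in Nkx2.5, and was well above background in Rex1 on 1 of 3 arrays. Both genes of the pair stayed between -0.30 and 0.06 on all 5 arrays.

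Efnb1, a B-class ephrin that sets tissue borders, had -0.07 in Bra, -0.55 in Flk1 and 0.31 in Nkx2.5 over Rex1, and 0.11 over Bra and 0.06 over Flk1 in Nkx2.5. Efna1, a lipid-anchored ligand of Epha2, had -0.24 in Bra, -0.01 in Flk1 and -0.07 in Nkx2.5 over Rex1, and -0.11 over Bra and -0.13 over Flk1 in Nkx2.5. Efna2, another A-class ligand, had -0.13 in Bra, -0.27 in Flk1 and 0.51 in Nkx2.5 over Rex1, and -0.15 over Bra and 0.23 over Flk1 in Nkx2.5. Its readings in Nkx2.5 over Flk1 were 0.23 and 0.78. The signs of Efnb1 and Efna2 differed between arrays. Efna3, Efna4, Efna5 and Efnb3 lay between -0.60 and 0.76, the highest value being that of Efna4 in Bra over Rex1, whose second reading was 0.04.

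Eph receptors numbered 22 probes of 12 genes. In Bra over Rex1 1 probe was higher by the size rule and 0 lower, where 1.27% and 0.253% of all probes were. In the other 5 comparisons 0 passed, where at most 2.75% of all probes did in a direction. Counts this small lie near the background. Their median was -0.01 and -0.04 in Nkx2.5 over Rex1, 0.02 and 0.14 in Flk1 over Rex1, and 0.07 and 0.18 in Bra over Rex1.

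Epha7, an A-class receptor of Efna5 that acts in neural tube closure in mice, had 3 probes. Probe 1 had 1.11 in Bra, 0.77 in Flk1 and 0.65 in Nkx2.5 over Rex1, and -0.42 over Bra and -0.15 over Flk1 in Nkx2.5. Its second readings were 1.07 in Bra, 0.80 in Flk1 and 0.65 in Nkx2.5 over Rex1. Probe 3 had 0.77 in Bra, 0.65 in Flk1 and 0.32 in Nkx2.5 over Rex1, and 0.01 over Bra and -0.31 over Flk1 in Nkx2.5. Probe 2 had 0.33 in Bra, 0.29 in Flk1 and 0.13 in Nkx2.5 over Rex1, and -0.50 over Bra and -0.40 over Flk1 in Nkx2.5. All 3 probes were above zero on the 3 arrays with Rex1, and all were well above background in every channel. In size they differed: only probe 1 reached 2-fold in Bra over Rex1, and probe 2 read 0.33 and 0.63. The fitted levels of probe 1 were 1.09 in Bra, 0.79 in Flk1 and 0.65 in Nkx2.5 over Rex1. Its readings over Bra, -0.34 and -0.27 in Flk1 and -0.42 and -0.46 in Nkx2.5, were below zero and well under 2-fold. In the deposited series table probe 1 read 0.82 and 0.78 in Bra over Rex1, and with no background subtracted 0.19 and 0.24, short of the size rule both times.

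Epha1, an A-class receptor of Efna1, gave 3 patterns with 3 probes. Probe 1 had 0.66 in Bra, 0.07 in Flk1 and 0.98 in Nkx2.5 over Rex1, and -0.31 over Bra and -0.18 over Flk1 in Nkx2.5. Probe 2 stayed between -0.05 and 0.08. Probe 3 had 0.90 in Bra, 1.24 in Flk1 and -0.04 in Nkx2.5 over Rex1, and -0.56 over Bra and -0.55 over Flk1 in Nkx2.5. Probes 1 and 3 were both above zero in Bra over Rex1 and parted in Flk1 and Nkx2.5, while probe 2 stayed near zero. Probe 1 read 0.66 and 1.28 in Bra over Rex1 and probe 3 read 0.90 and 0.52, so that only probe 1 was past 1.5-fold there.

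Ephb2, a B-class receptor active in vessels and axon guidance, had -0.85 in Bra, -1.02 in Flk1 and -0.41 in Nkx2.5 over Rex1, and -0.07 over Bra and -0.33 over Flk1 in Nkx2.5 with probe 1. Probe 2 had 0.26 in Bra, 0.25 in Flk1 and 0.31 in Nkx2.5 over Rex1, and 0.06 over Bra and -0.20 over Flk1 in Nkx2.5. Probe 3 had 0.62 in Bra, 0.63 in Flk1 and -0.02 in Nkx2.5 over Rex1, and 0.13 over Bra and -0.01 over Flk1 in Nkx2.5. Its probes disagreed in sign on all 3 arrays with Rex1. Ephb3, a related receptor, stayed between -0.41 and -0.02 with probe 1 and read 0.20 and 0.60 in Nkx2.5 over Flk1 with probe 2. Epha2, the receptor of Efna1, stayed between -0.20 and 0.29 over its 3 probes and the 5 arrays.

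Epha3, needed in mice for the cushions between atria and ventricles, had -0.12 in Bra, -0.57 in Flk1 and -0.45 in Nkx2.5 over Rex1, and -0.11 over Bra and -0.59 over Flk1 in Nkx2.5 with probe 1. Probe 2 had 0.09 in Bra, 0.44 in Flk1 and 0.47 in Nkx2.5 over Rex1, and -0.26 over Bra and 0.12 over Flk1 in Nkx2.5, opposite in sign on 4 arrays. Epha4, a receptor of both ephrin classes, had -0.09 in Bra, -0.68 in Flk1 and 0.00 in Nkx2.5 over Rex1, and 0.05 over Bra and -0.22 over Flk1 in Nkx2.5. Epha8, an A-class receptor, was below zero on all 5 arrays, at -0.37 in Bra, -0.09 in Flk1 and -0.50 in Nkx2.5 over Rex1, and -0.33 over Bra and -0.27 over Flk1 in Nkx2.5. Its readings in Nkx2.5 over Flk1 were -0.27 and -0.41. The other receptors, Epha5, Epha6 and Ephb6, lay between -0.37 and 0.40.

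Probes of the same gene differed from each other, most on the array of Nkx2.5 over Rex1. For the 12 member genes with 2 or 3 probes, the range between probes of a gene on the array of Nkx2.5 over Rex1 had a median of 0.56 and reached 1.97, in Sema6a. On the array of Flk1 over Rex1 the median range was 0.33 and the widest 1.65, and on that of Bra over Rex1 0.31 and 1.48, both widest values in Ephb2. In Nkx2.5 over Bra and in Nkx2.5 over Flk1 the median range was 0.17 and 0.24. Of these genes Epha7 and Nrp2 had all their probes on the same side of zero on each of the 3 arrays with Rex1, while the other 10 had not. Nrp1 has 1 probe, so its values have no such check.

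**Figure D4:**
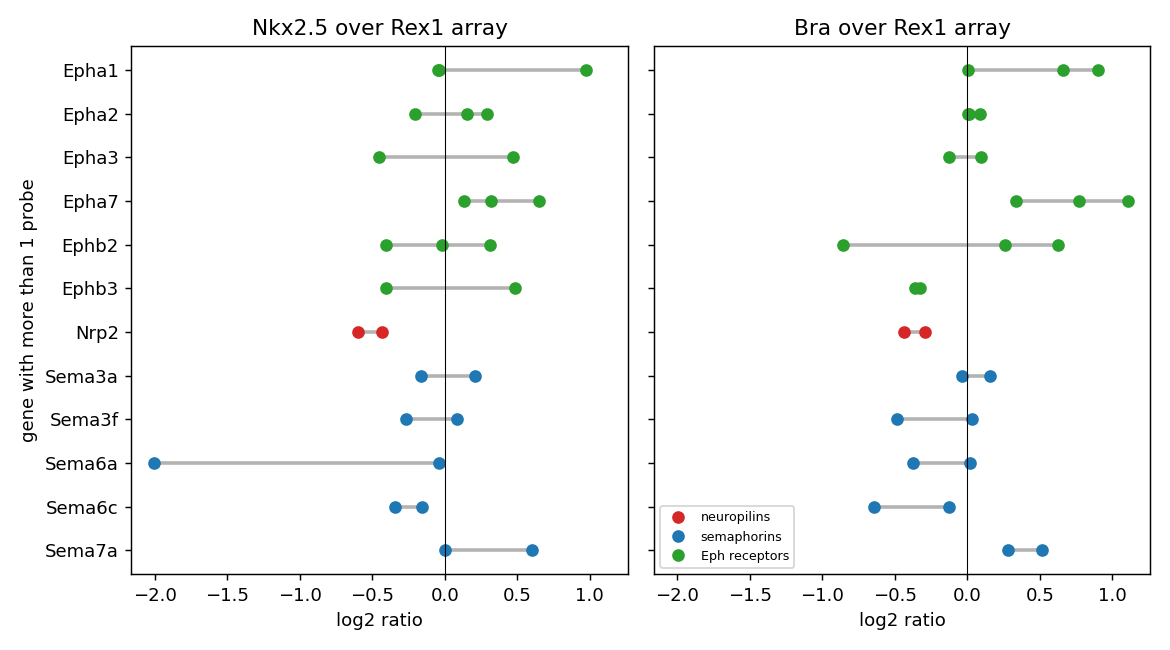
Points give the log2 ratio of each probe of the 12 genes with more than 1 probe, on the array of Nkx2.5 over Rex1 (left) and of Bra over Rex1 (right); grey bars join the probes of a gene. The bars are longest for Sema6a on the left, at 1.97, and for Ephb2 on the right, at 1.48.

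Over the 4 populations, a least-squares fit gave each probe a level relative to Rex1. By these levels 10 of 62 probes (16.1%) were highest in Nkx2.5, against 29.2% of all probes, 10 (16.1%) in Flk1, against 19.2%, 19 (30.6%) in Bra, against 18.1%, and 23 (37.1%) in Rex1, against 33.5%. The lowest level was in Nkx2.5 for 26 probes (41.9%), against 28.9% of all probes. The members thus had their peak in Bra more often, and in Nkx2.5 less often, than the probes at large by count, a difference that was not tested. The span between the highest and the lowest level had a median of 0.34 in members, against 0.33 over all probes. The error of a single fitted level was 0.17 for Nkx2.5 and 0.19 for Flk1 and for Bra over Rex1, so the order of the populations is not settled for members of small span. A span of 1 or more was found in 5 members (8.06%), against 6.32% of all probes: Nrp1 at 2.91, a value with no exact size because Rex1 is dim, Sema4f at 1.19, probe 1 of Sema6a at 1.17, probe 1 of Epha7 at 1.09 and probe 3 of Epha1 at 1.01.

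**Figure D5:**
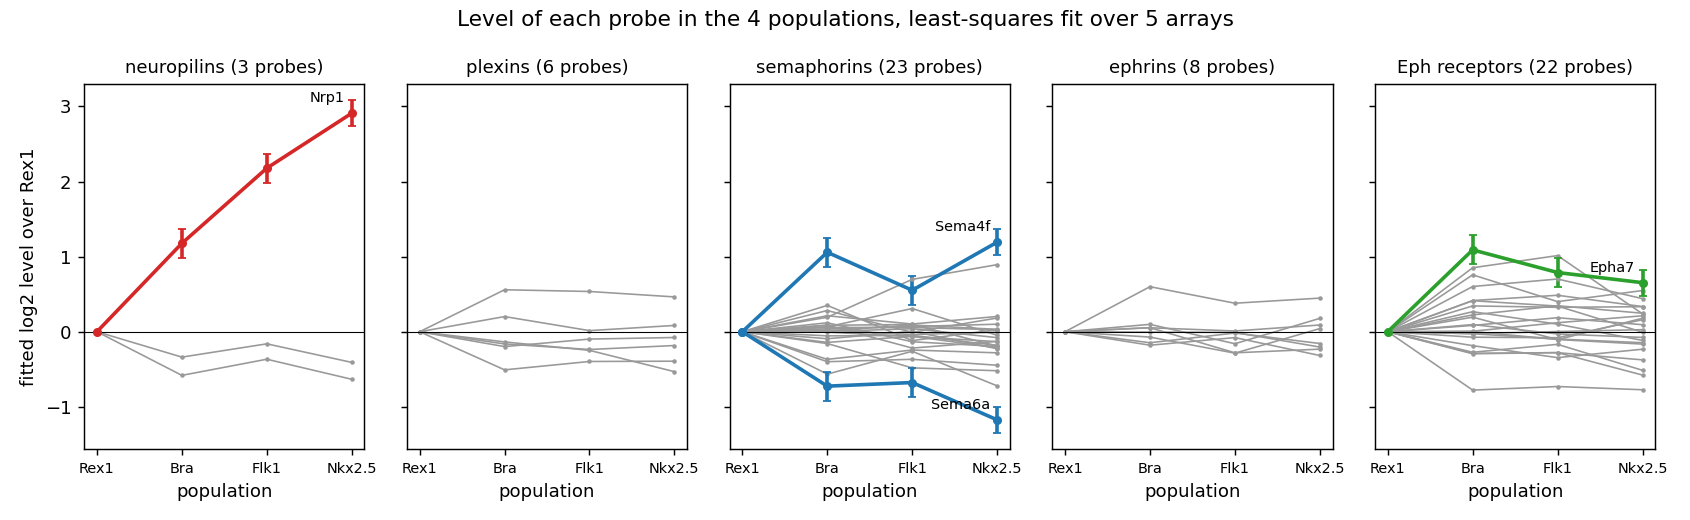
Lines give the fitted log2 level of each probe over Rex1 in the 4 populations, with a panel for each family; 4 probes are coloured and carry bars of 1 fitted error from the average error of an array, and Rex1 is set to 0. Nrp1 climbs to 2.91 in Nkx2.5, while the plexin and ephrin probes stay between -0.53 and 0.60.

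The intracellular partners of these receptors were read from a list of 40 genes, of which 36 were on the array, each by its brightest probe. In each of the 6 comparisons 0 of 36 passed the size rule. At 1.5-fold, 3 were higher and 0 lower in Nkx2.5 over Rex1, among them Fyn, a Src-family kinase, at 0.89 and 1.16, and Nck1, an adaptor of Eph receptors, at 0.72 and 1.04, where 6.29% of all probes were higher. Fyn was also past 1.5-fold in Flk1 over Rex1, at 1.16 and 0.79, and Dpysl3, a collapsin response mediator, in Nkx2.5 over Bra, at 0.63 and 0.83. The median of the list was 0.20 and 0.11 in Nkx2.5 over Rex1, above those of the members.

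Other guidance ligands and receptors were read from 27 of 32 listed genes, each by its brightest probe. In Bra over Rex1 2 of 27 were higher, where 1.27% of all probes were, and in Nkx2.5 over Rex1 1 of 27, where 2.75% were. Slit3, a secreted ligand of Robo receptors, was higher in Bra over Rex1 at 1.10 and 1.08. Neto1, whose name comes from a domain shared with neuropilins, was higher in Bra over Rex1 at 1.27 and 1.30 and in Nkx2.5 over Rex1 at 1.55 and 2.17, with Rex1 dim on all 3 arrays. The other comparisons had 0 calls. Vegfa, which encodes the growth factor that Nrp1 binds, had readings of 0.36 and 0.84 in Nkx2.5 over Rex1, 0.66 and 0.21 in Nkx2.5 over Bra and 0.93 and 0.42 in Nkx2.5 over Flk1. It read -0.06 and -0.57 in Flk1 over Rex1, -0.21 and -0.27 in Flk1 over Bra, and 0.14 and -0.30 in Bra over Rex1. Vegfa was thus above zero in the comparisons of Nkx2.5 and below zero in those of Flk1 with Rex1 and Bra, where Nrp1 was above zero. It passed the size rule in none of the 6, and only the brightest of its 4 probes was read.

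Nrp1 is also expressed by endothelium, so the markers of other cell types are given beside it, each by its brightest probe. Of 14 endothelial markers 0 passed in Nkx2.5 over Rex1 or in Nkx2.5 over Bra, where 2.75% and 0.319% of all probes were higher. In Flk1 over Rex1 2 were higher, Sox18 at 1.27 and 1.39 and Egfl7 at 1.07 and 1.34, against 0.749% of all probes. In Nkx2.5 over Flk1 Cldn5 was higher, at 1.36 and 1.31, and Sox18 lower, at -1.19 and -1.07. There 0.34% of all probes were higher and 0.101% lower. Sox18 was also higher in Flk1 over Bra, at 2.19 and 1.56, where 0.0173% of all probes were, and 0 passed in Bra over Rex1. The summed normalised signal of the 14 ran from 39321 to 45485 in the Nkx2.5 channels, 43363 to 48693 in Flk1, 29911 to 34598 in Bra and 31972 to 34633 in Rex1, and Tie1 was above background in Bra on no array. At 1.5-fold 4 of the 14 were higher and 1 lower in Nkx2.5 over Rex1, where 6.29% and 3.26% of all probes were. The lower marker was Erg, at -0.62 and -0.82, and Pecam1 was near zero there, at -0.04 and 0.15. The endothelial sum was higher in Nkx2.5 and Flk1 than in Bra and Rex1, the direction that Nrp1 showed by both readings, though not all single markers followed. It overlapped between Bra and Rex1, where Nrp1 read 1.18 and 0.88, and between Nkx2.5 and Flk1, where Nrp1 read 1.03 and 0.13. The part of endothelium in the Nrp1 result was not tested.

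Of 10 cardiomyocyte markers 5 were higher in Nkx2.5 over Rex1, 4 in Nkx2.5 over Bra and 6 in Nkx2.5 over Flk1. Of all probes 2.75%, 0.319% and 0.34% were higher there. In the other comparisons 0 of the 10 passed. Their summed signal was 98502 to 109126 in Nkx2.5, 37735 to 51501 in Flk1, 38221 to 45350 in Bra and 37441 to 45359 in Rex1, so that Flk1 and Bra overlapped Rex1. Of 7 endoderm markers 4 were higher in Nkx2.5 over Rex1, 2 in Nkx2.5 over Bra and 1 in Nkx2.5 over Flk1. The shares of all probes were as above, and in Bra over Rex1 2 markers were higher against 1.27%. In Flk1 over Rex1 and in Flk1 over Bra 0 of the 7 passed. Their sums were 44226 to 47967 in Nkx2.5, 19440 to 24109 in Flk1, 25320 to 26664 in Bra and 13507 to 17644 in Rex1, where Afp and Gata4 were dim. The endoderm sum was thus higher in each of the other populations than in Rex1, as the Nrp1 signal was, but lower in Flk1 than in Bra. The part of these cells in the Nrp1 result was not tested. Of 11 neural, 7 neural crest and 6 fibroblast markers 0 passed in any of the 6 comparisons. Since at most 2.75% of all probes passed in a direction, 0 in lists this short does not show that such cells were absent.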

How the data were processed

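Expression was measured on 5 two-colour arrays. Per the labels' protocols, RNA was purified on columns and amplified in an amino allyl form that took up the dyes. The scanner software is not given in the sources used here. Scanner files, as deposited, hold, per the file headers, an intensity and a background for each channel and their ratio. The authors' series table gives log2 ratios for 28524 probes and all 62 members. Each of its columns equalled the log2 of the scanner ratio less a constant for the array, to within 1.00e-06, which settles scale and direction.

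The foreground was rebuilt as net signal plus background, adjusted by normexp (offset 50), and ratios were then loess-normalised for each array, giving control spots no weight (limma 3.58.1, R 4.3.3). Tables and figures were made in Python 3.11.15. All 62 members were marked Normal on all 5 arrays. Names were updated through RefSeq (35 members by accession, 27 by symbol). A probe named Npn2, a synonym of Nrp2 in RefSeq, is defined in the files as another gene and was not taken.

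The members and lists were chosen with earlier results of these data known. Genes were named where a probe passed the size rule, where it was among the 3 highest or 3 lowest of a comparison by the smaller of its readings, or where it belonged to a ligand and receptor pair known from heart and vessel development. Plxna3, Plxnb2, Sema6a and Efna4 were named after their values were seen. The calling rule and fit were tested on simulated data. The precision is limited by the 5 arrays, since no pair was repeated. The alternatives were no background subtraction, another offset, median centring, the deposited table, other thresholds and filters, the least-squares fit and the brightest probe for each gene. One gene of the list of intracellular partners is not reported here.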

Additional observations from a re-analysis of the deposited data

How the results depend on the processing

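No paired analysis was possible because each pair of populations was hybridised once and the labels give no replicate numbers that link arrays. The calls rest on background subtraction: with none subtracted, 0 members passed in the comparisons of Bra, Flk1 and Nkx2.5 with Rex1 and in Nkx2.5 over Bra, where 1 had passed in each. Of all 28845 probes, at most 3 then passed in a direction in any comparison, so few calls of any gene remained. In the Cy3 channels with Rex1 the median net signal was 0.30 to 0.34 of the background, which limits what any ratio over Rex1 can show. The deposited series table gave 0 in Bra over Rex1 and 2 in Nkx2.5 over Rex1, Nrp1 and probe 2 of Nrp2. Under that setting 0.674% and 2.08% of all probes tested passed in either direction, so these counts lie near the background. With both populations required well above background, 0 passed in Flk1 over Rex1 and 0 in Nkx2.5 over Rex1, since Nrp1 is dim in Rex1. Of all probes 0.596% and 2.06% then passed in either direction. At 1.5-fold the counts were 4 in Bra, 3 in Flk1 and 6 in Nkx2.5 over Rex1, and 1 in Flk1 over Bra. The least-squares fit gave 3 in Bra over Rex1 (Epha7, Nrp1 and Sema4f), 2 in Flk1 over Rex1 (Nrp1 and Epha1), 3 in Nkx2.5 over Rex1 (Nrp1, Sema4f and Sema6a) and 1 in Flk1 over Bra (Nrp1), where 3.18%, 2.74%, 5.45% and 0.0832% of all probes passed in either direction. That last call was lost without the array of Bra and Rex1 and without that of Flk1 and Rex1. An offset of 16, median centring, spots marked Bad left out and the brightest probe for each gene changed none of the 6 counts. No median of the members moved by as much as the average error of 1 array under any setting tried. Of 984 values recomputed for the 41 probes of named genes, 5 calls were lost and 1 value gained 2-fold. The first reading changed sign in 0 calls, though most of these values were not called to begin with. With no background subtracted the second reading of Nrp1 in Flk1 over Rex1 was -0.05. A further 87 values moved by more than the average error of 1 array with no background subtracted, and 11 in the deposited table. Among the 87 was probe 1 of Epha7 in Nkx2.5 over Rex1, which went from 0.65 in both readings to -0.03 and -0.10. Fits without each array in turn were added after the data were seen. For Nrp1 they gave 0.60 to 1.40 in Flk1 over Bra and 0.23 to 1.03 in Nkx2.5 over Flk1, and for probe 1 of Epha7 1.06 to 1.11 in Bra over Rex1.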
